A study of Mus musculus with 22 samples.

Results

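The ploidy step of megakaryocytes labelled as knockouts of the splicing factor gene Srsf3 was examined across genes, as the change from cells with an 8N DNA content to cells with 16N or more (16N-plus). The members were all rows of the authors' table for that comparison, 9326 genes of 24854 in the tables used here, and the rule used no measured value. Bone marrow megakaryocytes of adult mice labelled C57BL/6 were sorted on CD41 and DNA content, and RNA was sequenced from 4 groups with 3 libraries each. The knockout groups were 8N and 16N-plus cells of Pf4Cre-Srsf3fl/fl mice, in which Cre under the platelet factor 4 promoter removes floxed Srsf3 in the megakaryocyte lineage. The comparison groups were 8N and 16N-plus cells of mice labelled Cre- control, whose Srsf3 alleles the labels do not give. Age beyond adult and the number of animals were not given. Nor was it given whether libraries, or both gates of a number, came from the same or pooled animals. The p-values thus rest on a spread between libraries that may be technical and that was largely pooled across genes. A gene's own spread over its 3 libraries a group enters them only in part. Both sides of the knockout step carry the Cre transgene, and a residual fraction of cells that escaped deletion was not measured.

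Megakaryocytes are the marrow cells that make platelets. They copy their DNA repeatedly without dividing, and as ploidy increases they build granules, an internal membrane system, a beta-1 tubulin cytoskeleton and the adhesion receptors that platelets inherit. SRSF3 is a serine and arginine rich RNA-binding protein that takes part in exon choice, in RNA 3' end formation and in mRNA export. The comparison addresses which RNAs changed with ploidy in libraries labelled Pf4Cre-Srsf3fl/fl, called knockout below.

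The values were the authors' edgeR comparisons, which hold no values per library, so no library could be examined on its own. The direction of the log2 fold changes is not stated in the tables. It was taken as 16N-plus minus 8N, the orientation in which platelet genes are higher and replication genes lower in control 16N-plus cells. The control and knockout tables share this orientation, because the difference between their steps equals the difference between the genotype comparisons at the 2 ploidies, to a largest deviation of 1.01e-14. The direction of platelet and replication genes in the control is therefore not independent evidence, and under the opposite reading every sign below would turn together. Each fold change compares shares of a library, so fewer cells of a type and less RNA per cell cannot be told apart. The lowest deposited mean level was 4.23 log2 CPM (counts per 1000000 reads counted), or 18.8 CPM, and the mean levels summed to 1145630, above the 1000000 that CPM can sum to. A level near 20 CPM can thus not be told from none. The standard error (SE), computed from the deposited fold change and F, was small for such genes (median 0.147 under a mean of 4.6 log2 CPM, against 0.247 between 6 and 7).

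In knockout cells of 16N-plus, relative to 8N knockout cells, RNA of platelet receptors, actin and adhesion proteins and the mitochondrial genome was higher, and RNA of ribosomal proteins and macrophage markers was lower. The authors' deposited table called 309 of 9326 genes (3.31%) at an adjusted p under 0.05, of which 196 were higher (2.10%) and 113 lower (1.21%) in 16N-plus cells. An unadjusted p under 0.05 was reached by 1265 genes. The median gene stood at -0.05 on the log2 scale, and centring on it gave 288 higher and 97 lower genes. Called rises had a median of 0.83, and 46 were of at least 1 on the log2 scale. Called falls had a median of -0.85, and 25 were of at least 1 in size. Calls lay among abundant genes. The quartile of highest mean level held 158 of the higher and 64 of the lower genes, and the lowest quartile held 5 and 4. Mcf2l, Tnfaip3 and Nsl1 lay just inside the threshold, with edgeR adjusted p of 0.0473, 0.0478 and 0.0482 per the authors' deposited table. Nat10, Trp53inp1 and Laptm4a lay just outside it, at 0.0502, 0.0516 and 0.0518 in the same deposited table of the authors.

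**Figure D1:**
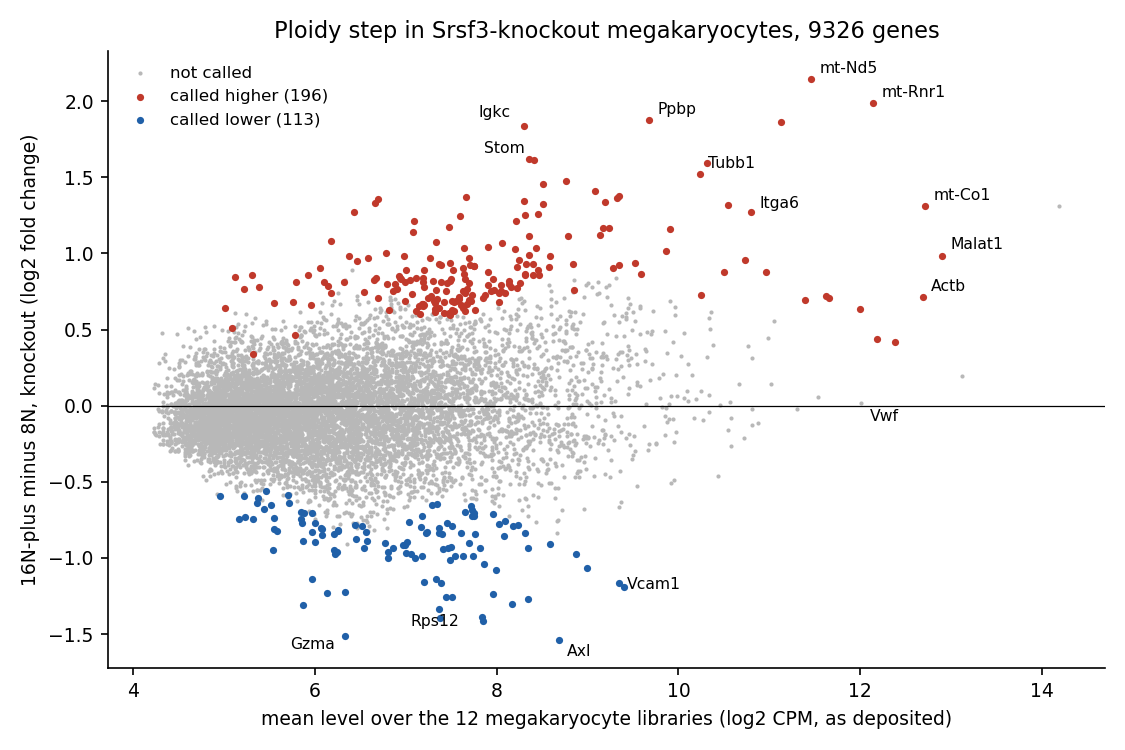
Log2 fold change from 8N to 16N-plus in knockout megakaryocytes (vertical) against the mean level over the 12 megakaryocyte libraries in log2 CPM (horizontal), 1 point a gene, coloured by the authors' adjusted p under 0.05. The 196 higher and 113 lower genes lie mostly above 6 log2 CPM, and the range runs from -1.54 for Axl to 2.15 for mt-Nd5.

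Srsf3 (ENSMUSG00000071172, chromosome 17, 29032628 to 29043373, plus strand, GRCm38), the deleted gene, did not differ detectably between the knockout gates. The authors' deposited table gave Srsf3 a log2 fold change of -0.08 (SE 0.22; edgeR adjusted p = 0.94). The gene-level value covers exons outside a deleted part and does not check the deletion. Its reconstructed levels were 162.2 CPM in 8N and 153.2 CPM in 16N-plus knockout cells, and 128.8 and 113.6 CPM in the control gates. They were thus higher rather than lower in the libraries labelled knockout at both ploidies. No test of that difference is given here, and the levels do not check the deletion. These levels were rebuilt here from the deposited mean and the deposited differences, as 1 value a group without error. The labelled cell type was checked against 19 megakaryocyte markers, all of which were measured and all of which had a positive log2 fold change in the knockout step. Of these, 9 rose and 0 fell, with a median of 0.66. Their summed reconstructed level went from 11916 CPM in 8N to 16746 CPM in 16N-plus knockout cells.

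Markers of other marrow cells changed beside the platelet genes, and their part in the results below was not tested. Of 25 macrophage and monocyte markers 10 fell (40%, against 1.21% of all genes) and 1, Ccr2, rose (4%, against 2.10%). Their median was -0.45. The summed level of this list was 5675 CPM in 8N and 4393 CPM in 16N-plus knockout cells. Axl, a receptor tyrosine kinase of phagocytes, had the largest fall of all genes, -1.54 (SE 0.27; edgeR adjusted p = 9.2e-06) per the authors' deposited table, from a reconstructed 582 to 200.5 CPM. Cd5l, a secreted protein of tissue macrophages, was at -1.39 (SE 0.20), Mrc1, the mannose receptor, at -1.30 (SE 0.24), and C1qb, a complement subunit, at -1.26 (SE 0.20) per the authors' deposited table. Hmox1, which degrades heme, fell by 1.24 (SE 0.21) and the sialic acid receptor gene Siglec1 by 1.15 (SE 0.20) in that deposited table of the authors. The genes that fell are known in macrophages of the marrow stroma, while Ccr2, the monocyte chemokine receptor, rose by 0.81 (SE 0.20; edgeR adjusted p = 0.0034) per the authors' deposited table. Other monocyte markers were not called, with Lyz2 at 0.61 (SE 0.23), Itgam at 0.52 (SE 0.22) and Csf1r at -0.22 per the authors' deposited table.

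Most measured immunoglobulin genes of the B and plasma cell list rose. Of 11 B and plasma cell markers 4 rose (36.4%, against 2.10% of all genes) and 0 fell. They were Igkc, Ighm, Igha and Jchain, and the summed level of the list went from 803 to 1612 CPM. Igkc, the kappa light chain constant region, rose by 1.84 (SE 0.23; edgeR adjusted p = 8.4e-11) per the authors' deposited table, from a reconstructed 114.5 to 409.3 CPM. The heavy chain gene Ighm rose by 1.48 (SE 0.27), Igha by 1.36 (SE 0.24) and Jchain, which joins secreted immunoglobulins, by 0.97 (SE 0.25), as the authors' deposited table lists them. Ighg2b, a gamma heavy chain gene, was not called at 0.50 (SE 0.18; edgeR adjusted p = 0.12) per the authors' deposited table. The B cell surface genes Cd79b (-0.20), Cd22 (-0.10) and Ms4a1 (0.27) were not called per the authors' deposited table. Of 9 T and NK cell markers 3 fell (33.3%, against 1.21% of all genes). Per the authors' deposited table, the granzyme gene Gzma was at -1.51 (SE 0.26) and the transcription factor gene Tcf7 at -1.31 (SE 0.22). The kinase gene Lck was at -0.60 (SE 0.18) in that deposited table. Lck was no longer called after centring on the median gene. The reconstructed 16N-plus levels of these 3 were 53.7, 40.9 and 27.0 CPM, not far above the lowest level the table can show. Of 20 genes on the neutrophil list Csf3r and Lyz1 rose (10%, against 2.10% of all genes) and 0 fell. Lyz1 is also known as a product of intestinal Paneth cells. The summed level of the list was 1993 CPM in 8N and 2441 CPM in 16N-plus cells. Of 20 erythroid, 9 eosinophil, basophil and mast cell, and 5 dendritic cell markers 0 were called by edgeR per the authors' deposited table. The share over all genes was 3.31%, and 2, 1 and 2 of these markers had an unadjusted p under 0.05. Of 10 endothelial and stromal markers 1 was called (10% lower, against 1.21% of all genes), the collagen chain Col1a1, at -1.23 (SE 0.24) per the authors' deposited table. Summed levels in 8N and 16N-plus knockout cells were 513 and 311 CPM for the T and NK list, 1873 and 2058 CPM for the erythroid list, 499.6 and 445 CPM for the eosinophil, basophil and mast list, 878 and 803 CPM for the endothelial and stromal list, and 249 and 246 CPM for the dendritic list.

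**Figure D2:**
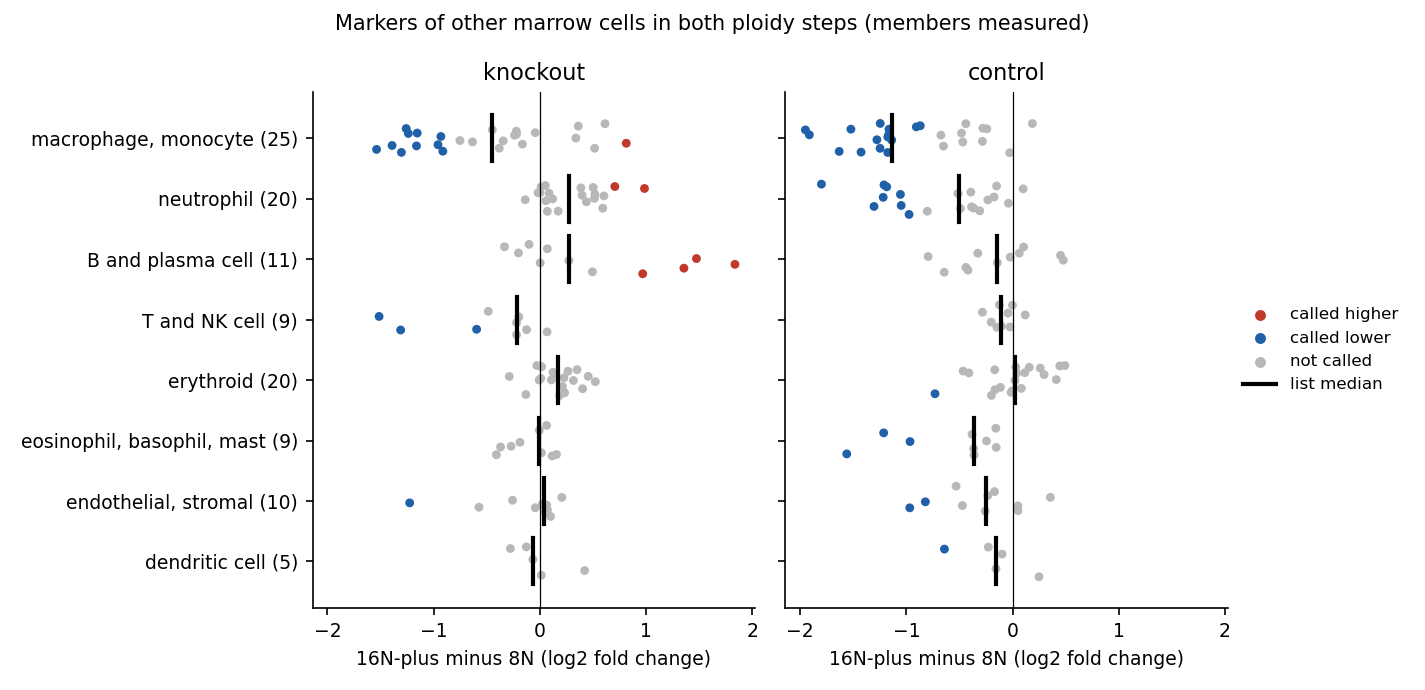
Log2 fold change from 8N to 16N-plus for markers of other marrow cells, in the knockout (left) and the control (right), 1 point a gene, with the list median as a bar and colours for the authors' adjusted p under 0.05. Of the 25 macrophage and monocyte markers 10 fell in the knockout and 15 in the control, against 1.21% and 2.51% of all genes. Of 11 B and plasma cell markers 4 rose in the knockout, against 2.10% of all genes. None of the 11 was called in the control, where 7.25% of all genes were called.

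Surface receptors were the platelet list with the most rises. Of 35 measured receptor genes 16 rose (45.7%, against 2.10% of all genes) and 0 fell. Their median was 0.63, against -0.05 over all genes. Cd226, an adhesion receptor of the immunoglobulin superfamily, rose by 1.46 (SE 0.23; edgeR adjusted p = 1.9e-07) per the authors' deposited table, from a reconstructed 83.2 to 228.5 CPM. Itga6, the alpha subunit of the laminin receptor, rose by 1.27 (SE 0.21), with reconstructed levels of 535 and 1289 CPM, per the authors' deposited table. Gp1ba, which carries the von Willebrand factor binding site of the GPIb complex, rose by 1.26 (SE 0.25), and its partner Gp1bb by 0.63 (SE 0.20; edgeR adjusted p = 0.047), as listed by the authors' deposited table. The remaining members of that complex were not called per the authors' deposited table: Gp9 was at 0.55 (SE 0.20; edgeR adjusted p = 0.12) and Gp5 at 0.84 (SE 0.27; edgeR adjusted p = 0.054). Both chains of the fibrinogen receptor rose per the authors' deposited table, Itga2b by 0.44 (SE 0.09) and Itgb3 by 0.71 (SE 0.14). Clec1b, the podoplanin receptor, rose by 1.21 (SE 0.22) and Gp6, the collagen receptor, by 1.07 (SE 0.18) per the authors' deposited table. Junction and adhesion proteins were among the rises, with Pecam1 at 1.17 (SE 0.27), F11r at 1.00 (SE 0.24) and Esam at 0.97 (SE 0.19) per the authors' deposited table. The ADP receptor P2ry12, at 0.24 (SE 0.15), was not called per the authors' deposited table. Together the 35 receptor genes made up a summed level of 11053 CPM in 8N and 17208 CPM in 16N-plus knockout cells, against 15079 and 30061 CPM in the control gates.

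Promoters of genes in the platelet lists that rose are shown for 3 members, because GATA and ETS family factors act at many megakaryocyte genes. Of 42 genes of the 6 platelet lists that rose, 32 had a promoter of 250 bases before to 50 bases after the start in the RefSeq table (GRCm38.p6). Capitals mark the searched letters, AGATAA for GATA and AGGAAG for ETS, on either strand.
Tubb1, chr2:174450345-174450644, plus strand: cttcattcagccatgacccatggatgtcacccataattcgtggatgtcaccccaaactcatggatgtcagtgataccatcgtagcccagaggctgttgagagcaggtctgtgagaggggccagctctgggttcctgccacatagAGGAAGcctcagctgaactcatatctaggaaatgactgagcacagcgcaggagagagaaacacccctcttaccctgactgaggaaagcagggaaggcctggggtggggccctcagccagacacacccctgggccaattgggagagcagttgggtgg
Clec1b, chr6:129397047-129397346, plus strand: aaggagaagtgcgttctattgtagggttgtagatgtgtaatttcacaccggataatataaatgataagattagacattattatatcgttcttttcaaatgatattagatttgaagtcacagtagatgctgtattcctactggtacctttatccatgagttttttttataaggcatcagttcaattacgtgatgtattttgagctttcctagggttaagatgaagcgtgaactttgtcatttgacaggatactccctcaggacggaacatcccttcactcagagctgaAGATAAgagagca
Ppbp, chr5:90768268-90768567, plus strand: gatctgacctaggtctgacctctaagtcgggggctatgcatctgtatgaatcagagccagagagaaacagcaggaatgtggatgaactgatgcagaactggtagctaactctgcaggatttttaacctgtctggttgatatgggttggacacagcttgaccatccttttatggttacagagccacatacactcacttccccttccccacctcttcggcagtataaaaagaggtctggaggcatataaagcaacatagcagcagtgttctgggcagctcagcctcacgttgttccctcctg
The Tubb1 window holds AGGAAG, the Clec1b window holds AGATAA close to the start, and the Ppbp window, whose gene had the largest rise outside the mitochondrial genome, holds neither. AGATAA was found in 4 of the 32 promoters (12.5%), against 11.4% of all 27025 promoters in the table and 6.07% of those of the measured genes. AGGAAG was found in 12 of the 32 (37.5%), against 35.1% of all promoters and 33.9% of those of the measured genes. Such a match describes the letters and is not a site of binding.

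Alpha granule cargo rose in part. Of 24 measured cargo genes 5 rose (20.8%, against 2.10% of all genes) and 1 fell (4.17%, against 1.21%), with a median of 0.42. Ppbp (ENSMUSG00000029372, chromosome 5, 90768518 to 90770063, plus strand), a platelet chemokine precursor, rose by 1.87 (SE 0.26; edgeR adjusted p = 2.8e-09) per the authors' deposited table, from a reconstructed 197.2 to 723 CPM. Clu, an extracellular chaperone, rose by 1.12 (SE 0.26), Thbs1, the matrix protein thrombospondin, by 0.88 (SE 0.21), Srgn, the proteoglycan core that retains cargo in granules, by 0.83 (SE 0.19), and the clotting transglutaminase subunit F13a1 by 0.61 (SE 0.19) per the authors' deposited table. The member that fell, at -0.98 (SE 0.22) per the authors' deposited table, was Apoe, an apolipoprotein that macrophages also make. Pf4 was not called at 0.66 (SE 0.27; edgeR adjusted p = 0.19), nor was the coagulation factor F5 at 0.59 (SE 0.25), per the authors' deposited table. Vwf, the ligand of the GPIb complex, stood at 0.02 (SE 0.11; edgeR adjusted p = 0.97) per the authors' deposited table, with reconstructed levels of 3065 and 3109 CPM. Granule assembly and release genes were called in 3 of 36 cases, all higher (8.33%, against 2.10% of all genes), with a median of 0.10. These were Nbeal2, required for alpha granules in mouse and human, at 0.90 (SE 0.27), the SNARE gene Snap23 at 0.86 (SE 0.23) and the serotonin transporter gene Slc6a4 at 0.68 (SE 0.17) per the authors' deposited table.

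The cytoskeleton lists differed from each other in count. Of 59 actin and adhesion genes 13 rose (22.0%, against 2.10% of all genes) and 0 fell. Their median was 0.43, and 52 of the 59 were above 0. Parvb, an adaptor of integrin adhesions, rose by 1.38 (SE 0.26; edgeR adjusted p = 5.6e-05) per the authors' deposited table, from a reconstructed 203.1 to 527.9 CPM. The tropomyosin Tpm4 rose by 1.34 (SE 0.27) and the cytoplasmic actin Actg1 by 1.01 (SE 0.25) per the authors' deposited table. Actb rose by 0.71 (SE 0.11), non-muscle myosin heavy chain Myh9 by 0.72 (SE 0.13), filamin A (Flna) by 0.63 (SE 0.11) and talin (Tln1) by 0.42 (SE 0.09) per the authors' deposited table, all with small errors at high levels. Of 38 tubulin and microtubule genes only Tubb1 and Tubb2a were called, both higher (5.26%, against 2.10% of all genes), and the list median was 0.05. Tubb1 (ENSMUSG00000016255, chromosome 2, 174450695 to 174457882, plus strand), the beta-1 tubulin of the platelet microtubule coil, rose by 1.52 (SE 0.24; edgeR adjusted p = 4.8e-07) per the authors' deposited table. Its reconstructed level went from 125.1 to 358.5 CPM in the knockout and from 748 to 3579 CPM in the control, so the knockout 16N-plus level was below the control 8N level. Tubb2a rose by 0.76 (SE 0.24; edgeR adjusted p = 0.044) per the authors' deposited table, from a reconstructed 102.8 to 174 CPM.

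Of 53 platelet signalling genes 3 rose (5.66%, against 2.10% of all genes) and 0 fell, with a median of 0.31. In the control 18 of the 53 rose, against 4.74% of all genes, and 0 fell, with a median of 0.45. In the test of the difference between the steps given below 1 of the 53, Rap1a, was called, against 0.735% of all genes. The 3 that rose in the knockout were the lipoxygenase Alox12, its relative's activating protein Alox5ap and the kinase Src. Their knockout steps were 1.12 (SE 0.24), 0.80 (SE 0.20) and 0.80 (SE 0.22) per the authors' deposited table. A further 19 of the 53 reached an unadjusted p under 0.05 without being called. Of 26 lineage transcription factors only Mrtfa was called, as higher (3.85%, against 2.10% of all genes). Mrtfa, a coactivator of serum response factor that responds to actin, was at 0.68 (SE 0.19, edgeR adjusted p = 0.018) per the authors' deposited table. Gata1 was at 0.44 (SE 0.20), Nfe2 at 0.68 (SE 0.26), Fli1 at 0.11 (SE 0.27) and Runx1 at -0.44 (SE 0.25) per the authors' deposited table, and none of these was called. Among 18 stem and progenitor genes 1 fell (5.56%, against 1.21% of all genes) and 0 rose. It was Myc, which fell by 0.82 (SE 0.19, edgeR adjusted p = 0.0021) per the authors' deposited table, to a reconstructed 36.7 CPM. Gata2 at -0.41 (SE 0.21) and Kit at -0.45 (SE 0.24) were not called per the authors' deposited table.

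**Figure D3:**
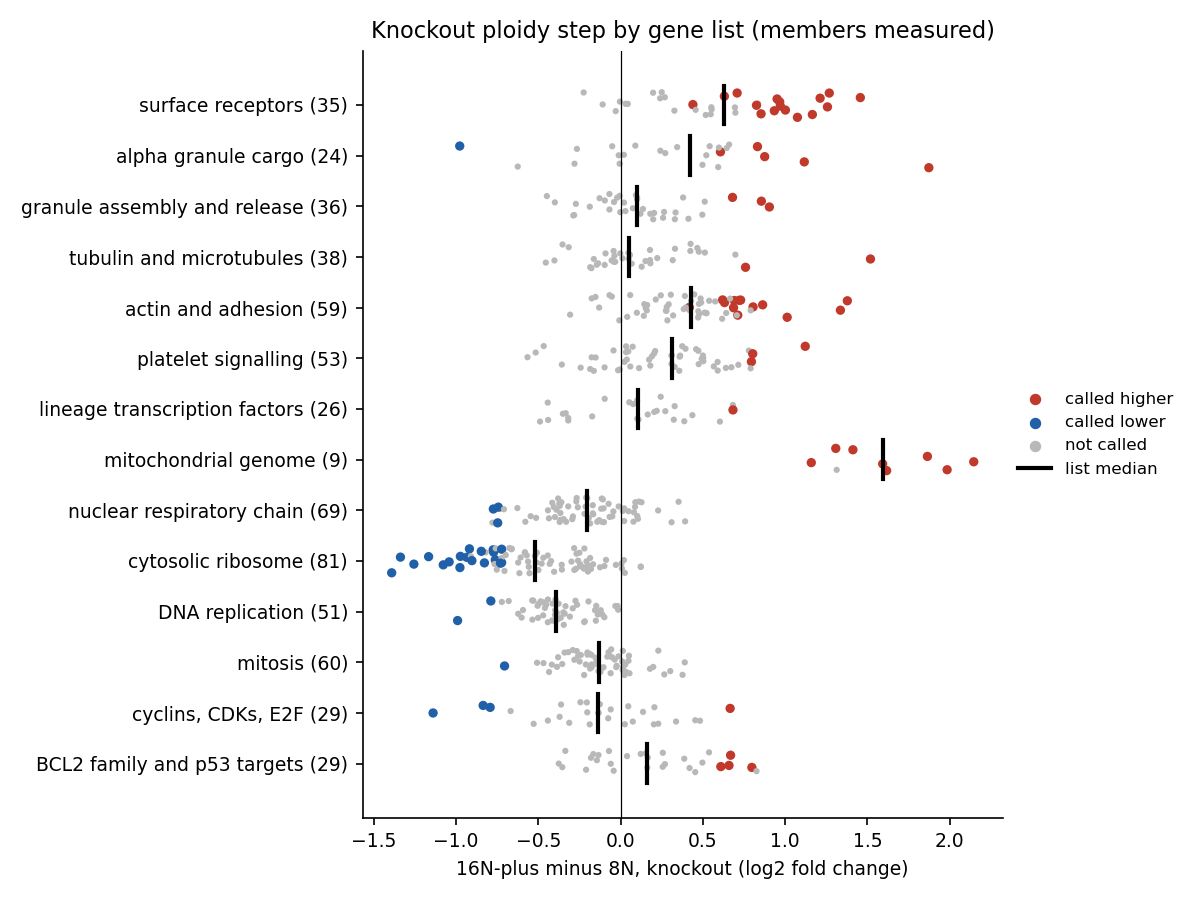
Log2 fold change from 8N to 16N-plus in knockout megakaryocytes for the measured members of 14 gene lists, 1 point a gene, with the list median as a bar and colours for the authors' adjusted p under 0.05. Surface receptors (16 rises, median 0.63) and the mitochondrial genome (8 rises, median 1.59) lie to the right, and cytosolic ribosomal proteins (19 falls, median -0.52) to the left.

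Genes that rose were abundant in platelets. The authors' deposited platelet table gives a mean normalised count per gene over platelet libraries of the study, a signal from another assay that was used only to rank genes. Its median was 2248 for the 165 higher genes with a value, 22.9 for the 91 lower genes with a value and 76.0 for all 8402 genes in both data sets. The quartile of genes most abundant in platelets held 127 of the higher and 10 of the lower genes, and the quartile least abundant there held 11 and 40. Abundance in megakaryocytes moved with this ranking, as given above, and its part was not tested. Stom, a membrane scaffold protein of red cells and platelets that stood in no list, rose by 1.62 (SE 0.25; edgeR adjusted p = 1.3e-07) per the authors' deposited table. Of the 196 higher genes 42 were in a platelet list and 127 in no list used here.

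Mitochondrial transcripts had the largest rises. Of 9 measured genes of the mitochondrial genome 8 rose (88.9%, against 2.10% of all genes). The list median was 1.59, against -0.05 over all genes. mt-Nd5 (ENSMUSG00000064367, mitochondrial genome, 11742 to 13565, plus strand), a subunit of complex I, rose by 2.15 (SE 0.16; edgeR adjusted p = 1.5e-29) per the authors' deposited table, from a reconstructed 1025 to 4538 CPM. The small ribosomal RNA gene mt-Rnr1 rose by 1.98 (SE 0.12), cytochrome b (mt-Cytb) by 1.86 (SE 0.20) and cytochrome oxidase subunit I (mt-Co1) by 1.31 (SE 0.13) per the authors' deposited table. The complex I genes mt-Nd6 at 1.62 (SE 0.25), mt-Nd2 at 1.59 (SE 0.24), mt-Nd4 at 1.41 (SE 0.29) and mt-Nd1 at 1.16 (SE 0.28) also rose per the authors' deposited table. The large ribosomal RNA gene mt-Rnr2 was at 1.31 with an SE of 0.48 and was not called (edgeR adjusted p = 0.13) per the authors' deposited table. Transcripts of both mitochondrial strands were among the rises, as mt-Nd6 lies on the opposite strand to the others. The 9 genes summed to 16599 CPM in 8N and 46709 CPM in 16N-plus knockout cells, or 1.54% and 4.12% of all levels. A few predicted or short RNA genes, of which Gm42418 overlaps ribosomal RNA, rose beside the mitochondrial genes. They were chosen after their values were seen, and their part in this result was not tested. Gm42418 rose by 0.96 (SE 0.20), with reconstructed levels of 1200 and 2326 CPM in the knockout gates, Gm10800 by 1.33 (SE 0.21), Gm13340 by 1.27 (SE 0.23) and Mir6236 by 0.89 (SE 0.23) per the authors' deposited table. Nuclear genes of the same complexes did not share this direction. Of 69 nuclear respiratory chain and ATP synthase genes 0 rose and 3 fell (4.35%, against 1.21% of all genes), with a median of -0.20. The falls were Atp5j2 at -0.75 (SE 0.19), Ndufa4 at -0.74 (SE 0.19) and Cox7a2 at -0.77 (SE 0.22) per the authors' deposited table, each with a reconstructed level of 49.5 CPM or less in 16N-plus cells. Of 68 mitochondrial ribosomal protein genes 0 rose and 1 fell (1.47%, against 1.21% of all genes). It was Mrpl12, by 0.84 (SE 0.26) per the authors' deposited table. Centring on the median gene ended this call and gave 2 rises.

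Cytosolic ribosomal protein genes fell in part. Of 81 measured genes 19 fell (23.5%, against 1.21% of all genes) and 0 rose, 75 were below 0, and the median was -0.52. At an adjusted p under 0.01 8 of them were called. Rps12 (ENSMUSG00000061983, chromosome 10, 23785183 to 23787275, minus strand), a small subunit protein, fell by 1.39 (SE 0.24; edgeR adjusted p = 3.8e-06) per the authors' deposited table, from a reconstructed 408.1 to 155.6 CPM. Rpl22 fell by 1.34 (SE 0.20), Rps20 by 1.26 (SE 0.20), Rps15a by 1.17 (SE 0.20) and Rps24 by 1.08 (SE 0.23) per the authors' deposited table. At the other end Rps2 was at 0.12 (SE 0.27) per the authors' deposited table and was not called. The list summed to 32662 CPM in 8N and 24867 CPM in 16N-plus knockout cells, against 23654 and 20852 CPM in the control gates. The knockout 16N-plus level of Rps12 was thus close to its control levels of 195.2 and 156.3 CPM. Ribosomal protein genes have many processed pseudogenes, whose reads may be split differently by the authors' counting, so single members are uncertain. Of 59 translation factors 1 rose (1.69%, against 2.10% of all genes) and 0 fell. It was Eif2ak1, the heme-regulated kinase of initiation factor 2, at 0.59 (SE 0.18, edgeR adjusted p = 0.044) per the authors' deposited table.

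Many ribosomal protein mRNAs begin with a C followed by a pyrimidine tract, through which their translation is regulated. The start windows of 5 genes that fell are shown from 15 bases before the first listed start, with RefSeq sequence of GRCm38.p6. Capitals mark a C followed by at least 4 C or T within 5 bases of the start, on the gene's strand.
Rps15a, chr7:118116123-118116162, minus strand: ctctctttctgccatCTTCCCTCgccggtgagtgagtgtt
Rps24, chr14:24490663-24490702, plus strand: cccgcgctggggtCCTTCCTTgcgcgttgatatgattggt
Rps21, chr2:180257364-180257403, plus strand: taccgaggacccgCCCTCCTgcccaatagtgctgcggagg
Rps12, chr10:23787185-23787224, minus strand: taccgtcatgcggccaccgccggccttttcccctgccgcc
Rpl22, chr4:152325711-152325750, plus strand: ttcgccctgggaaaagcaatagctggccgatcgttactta
The tract was found in 7 of 15 ribosomal protein genes that fell and had a window (46.7%) and in 29 of all 60 with a window (48.3%). It was found in 18.5% of all 27025 windows in the table and in 19.9% of those of the measured genes. The share was thus alike in the genes that fell and in the whole family. Rps12 and Rpl22, which had the largest falls of the family, showed no such letters within 5 bases of the first listed start. The Rps12 sequence shown holds a run of C and T further on, outside the searched bases. A missing match thus says only that the searched bases lack the tract.

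Cell cycle genes were called singly in the knockout step. Of 51 DNA replication genes 2 fell (3.92%, against 1.21% of all genes) and 0 rose, all 51 were below 0, and the median was -0.40. The falls were the polymerase subunit Pole at -0.99 (SE 0.21) and the maintenance methylation factor Uhrf1 at -0.79 (SE 0.19) per the authors' deposited table. Mcm5, a subunit of the replicative helicase, was not called at -0.50 (SE 0.25; edgeR adjusted p = 0.35) per the authors' deposited table. Of 60 mitosis genes 1 fell (1.67%, against 1.21% of all genes) and 0 rose, with a list median of -0.13. The one that fell was the spindle checkpoint gene Mad2l1, at -0.70 (SE 0.22) per the authors' deposited table. Mad2l1 was not called after centring on the median gene. The proliferation marker Mki67 was at -0.21 (SE 0.20) and topoisomerase Top2a at -0.18 (SE 0.27) per the authors' deposited table, and neither was called. G1 regulators moved in both directions, with 3 of 29 lower (10.3%, against 1.21% of all genes) and 1 higher (3.45%, against 2.10%). Cdk6 fell by 1.14 (SE 0.20; edgeR adjusted p = 7.3e-06), Cdk4 by 0.83 (SE 0.20) and Ccnd2 by 0.79 (SE 0.23), while Ccnd3, a D-type cyclin linked to endomitosis, rose by 0.67 (SE 0.19), per the authors' deposited table. The other 25 of the 29 cyclins, kinases, inhibitors and E2F factors were not called, and Ccne1 has no row in the table. Of 37 replication-dependent histone genes only the linker histone Hist1h1c rose (2.70%, against 2.10% of all genes), at 0.77 (SE 0.23), per the authors' deposited table.

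Among the remaining lists, 4 of 29 genes of the BCL2 family, caspases and p53 targets rose (13.8%, against 2.10% of all genes) and 0 fell. They were the BH3-only gene Bbc3 at 0.80 (SE 0.22), the p53 target Ccng1 at 0.67 (SE 0.20), the survival gene Bcl2l1, which sets platelet lifespan, at 0.66 (SE 0.19), and Mdm2, the ubiquitin ligase of p53, at 0.61 (SE 0.19) per the authors' deposited table. Splicing genes had few calls, as did all genes. Of 20 SR protein genes 0 were called by the authors' edgeR test, against 3.31% of all genes. An unadjusted p under 0.05 was reached by 4 of the 20. Of 58 spliceosome and hnRNP genes only Snrpe fell (1.72%, against 1.21% of all genes), at -0.70 (SE 0.21) per the authors' deposited table. That call was lost after centring on the median gene. Of 43 membrane and lipid genes 1 rose (2.33%, against 2.10% of all genes) and 1 fell (2.33%, against 1.21%). The phosphatidylinositol precursor synthase Cds2 rose by 0.99 (SE 0.24) and fatty acid synthase Fasn fell by 0.91 (SE 0.27) per the authors' deposited table. Single members were called in 4 further lists of the authors' deposited table, from 2.70% to 5.26% of a list, against 3.31% of all genes. The glucose transporter Slc2a3 rose by 0.92 (SE 0.26), the interferon-induced GTPase Igtp by 0.82 (SE 0.18) and the endoplasmic reticulum stress gene Herpud1 by 0.76 (SE 0.20), while the lysosomal protease Ctsb, abundant in macrophages, fell by 1.19 (SE 0.28). Of 37 proteasome genes 0 were called by edgeR, against 3.31% of all genes, with 4 at an unadjusted p under 0.05.

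**Figure D4:**
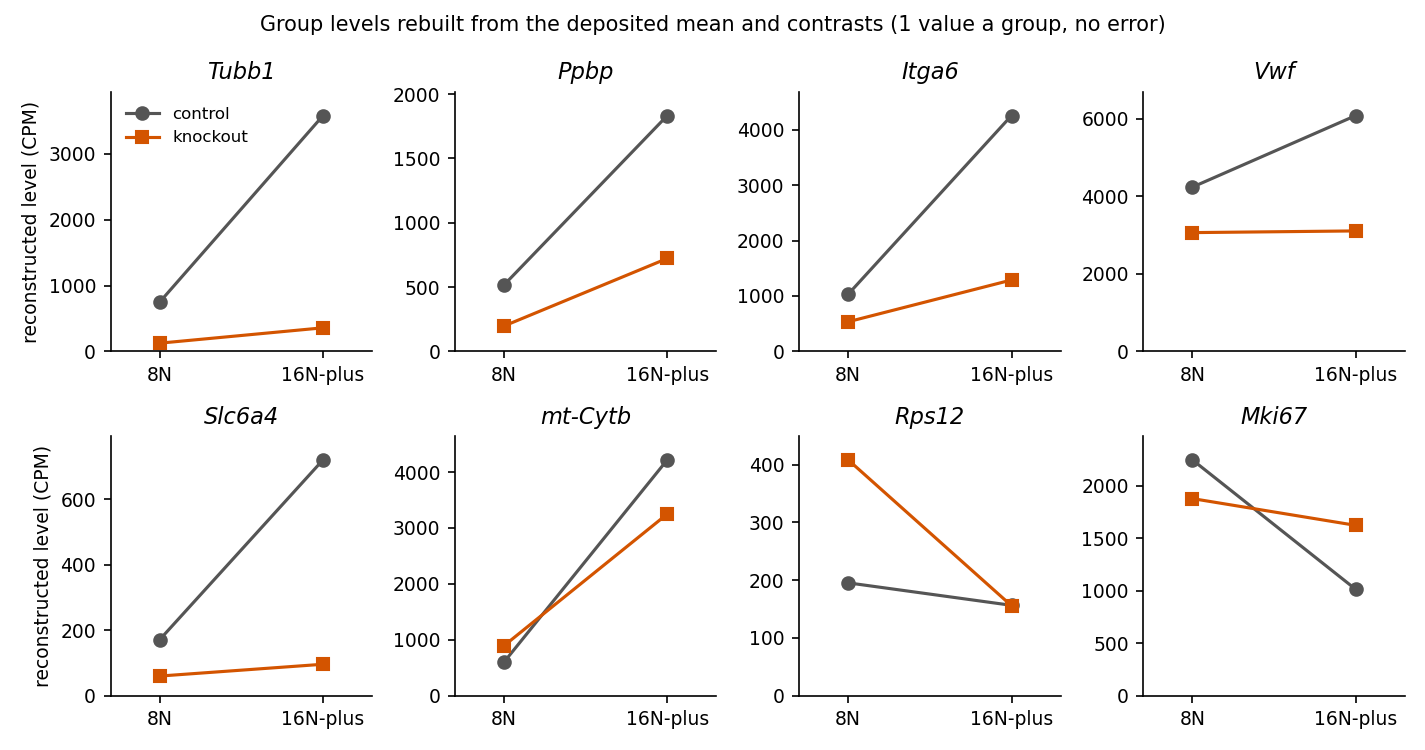
Reconstructed level in CPM of 8 genes in 8N and 16N-plus cells, 1 value a group without error, for control (circles) and knockout (squares); each vertical axis starts at 0. Tubb1 went from 125.1 to 358.5 CPM in the knockout and Vwf from 3065 to 3109 CPM, while Rps12 went from 408.1 to 155.6 CPM.

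The knockout step was set against the control step, with which it shares no libraries. The control table called 676 genes (7.25%), 442 higher (4.74%) and 234 lower (2.51%). The median SE was 0.21 in the knockout and 0.25 in the control. Over the 442 genes called higher in the control the median log2 fold change was 1.05 in the control and 0.47 in the knockout, and 402 of them were above 0 in the knockout. Over the 234 called lower the medians were -0.90 and -0.31, and 194 were below 0 in the knockout. These genes were chosen by the control values, which favours larger values there. Of the 196 genes that rose in the knockout 126 were also called higher in the control and 2 were called lower, and their control median was 0.94. Of the 113 that fell 34 were also called lower in the control, and their medians were -0.48 in the control and -0.85 in the knockout. These genes were chosen by the knockout values, which favours larger values there. Across all genes the steps had a Pearson r of 0.52 and a Spearman rho of 0.40, as a description over genes that are not independent replicates.

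The difference between the steps was tested gene by gene (normal approximation, Benjamini-Hochberg adjustment over 9256 genes). It was called for 68 genes (0.735%), with 700 at an unadjusted p under 0.05. For 51 genes (0.551%) the knockout step was lower, and their median step was 1.62 in the control and 0.19 in the knockout. Of these 51, 48 were called higher in the control, and 7 were called higher and 2 lower in the knockout. For 17 genes (0.184%) the knockout step was higher, with medians of -0.80 in the control and 0.52 in the knockout. Both sets were chosen by the difference between the steps, which favours medians that lie far apart. Of the 42 platelet list genes that rose in the knockout, 2 were called in this test and 40 were not, which does not show that their steps were equal. For Ppbp the difference was 0.04 (SE 0.37), for Tubb1 -0.74 (SE 0.34; adjusted p = 0.54) and for Itga6 -0.78 (SE 0.29; adjusted p = 0.29).

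Among platelet list members, Tubb2a, Slc6a4, Stx11 and Rap1a had a smaller step in the knockout. The difference was -1.65 (SE 0.37; adjusted p = 0.0029) for Tubb2a and -1.39 (SE 0.29; adjusted p = 5.3e-04) for Slc6a4. Reconstructed Slc6a4 levels were 170.8 and 719.6 CPM in the control gates and 59.8 and 95.9 CPM in the knockout gates. Stx11, a SNARE of platelet secretion, differed by -1.22 (SE 0.28) and Rap1a, a small GTPase of integrin activation, by -1.24 (SE 0.34; adjusted p = 0.040), though Rap1a was not called with SEs taken from the genotype tables. Transcription factors Gata2, at -1.45 (SE 0.32; adjusted p = 0.0016), and Lyl1, at -1.25 (SE 0.29; adjusted p = 0.0047), were also called. Gata2 went from 214.5 to 442.3 CPM in the control and from 215.8 to 162.7 CPM in the knockout, so its steps had opposite signs. The mitochondrial gene mt-Nd1 had a difference of -1.50 (SE 0.41, adjusted p = 0.035). The other 8 mitochondrial genes were not called, which does not show that their steps were equal. In the control all 9 rose, against 4.74% of all genes, with a median of 2.41. The median of knockout step minus control step over the 9 was -0.67. The largest negative differences were those of Lpin2, a phosphatidate phosphatase, at -2.26 (SE 0.37; adjusted p = 3.2e-06), Prokr1, a prokineticin receptor, at -2.08 (SE 0.32), and Mmp19, a matrix metalloproteinase, at -1.91 (SE 0.24; adjusted p = 3.2e-11). Mmp19 had reconstructed levels of 94.0 and 416.1 CPM in the control gates and 44.0 and 51.7 CPM in the knockout gates. The knockout levels were not far above the lowest level the table can show, near which SEs were small and changes cannot be resolved.

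Of 81 ribosomal protein genes 0 were called in the difference test, which called 0.735% of all genes. In the separate steps 19 fell in the knockout and 3 in the control, against 1.21% and 2.51% of all genes. With so few genes called in the difference test, a count of 0 does not show that the steps were equal. The median of knockout step minus control step over the list was -0.26, with Rps12 at -1.07 (SE 0.36; adjusted p = 0.16) and Rpl22 at -0.86 (SE 0.32; adjusted p = 0.30). DNA replication and mitosis genes were not called either, 0 of 51 and 0 of 60, and the same limit holds. In the separate steps 10 of each list fell in the control, against 2 and 1 in the knockout. Over all genes 2.51% fell in the control and 1.21% in the knockout. Mki67 had a difference of 0.94 (SE 0.30; adjusted p = 0.12), with reconstructed levels of 2248 and 1013 CPM in the control gates and 1878 and 1623 CPM in the knockout gates. The median difference was 0.31 for the mitosis list and 0.09 for the DNA replication list.

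Of the 17 genes with a higher step in the knockout, 11 are on the lists of other cell types. They include 5 of the 20 measured genes of the neutrophil list and 3 of the 11 of the B and plasma cell list. Those 3 are immunoglobulin genes. The myeloid integrin gene Itgam, 1 of 25 macrophage and monocyte markers, is also among them. Over all genes tested the share with a higher step was 0.184%. Lyz1, on the neutrophil list and also known from Paneth cells of the intestine, had the largest difference, 2.51 (SE 0.35, adjusted p = 2.5e-09). Its reconstructed levels were 204.2 and 58.6 CPM in the control gates and 58.3 and 95.1 CPM in the knockout gates. Differences were 2.12 (SE 0.40) for Ighm, 1.77 (SE 0.32) for Igkc, 1.82 (SE 0.37) for Mmp9 and 1.37 (SE 0.37) for Csf3r. The summed neutrophil level was 3171 and 1667 CPM in the control gates and 1993 and 2441 CPM in the knockout gates. For the B and plasma cell list these sums were 1663 and 1421 CPM against 803 and 1612 CPM. The T cell genes Gzma, at -1.31 (SE 0.31), and Tcf7, at -1.29 (SE 0.22), lay on the other side. With SEs from the genotype tables Csf3r and Tcf7 were not called. Without the marker lists of other cells, 285 genes were called in the knockout step.

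**Figure D5:**
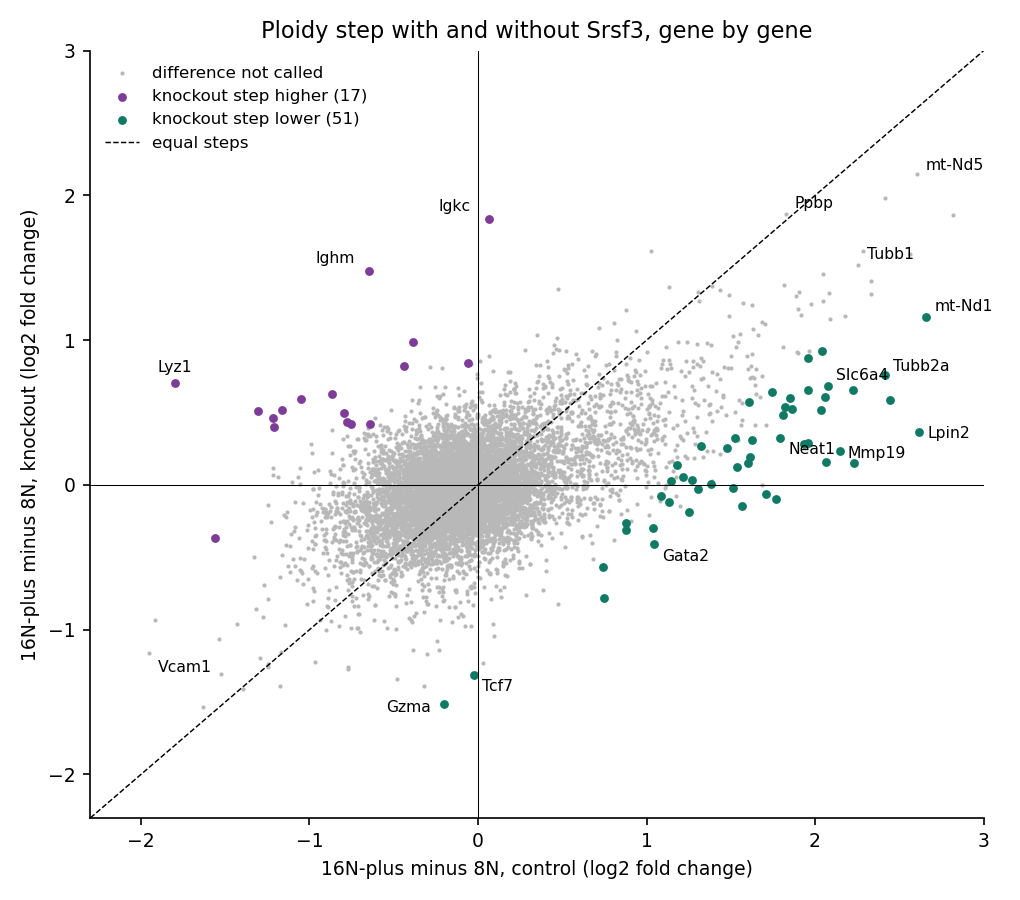
Log2 fold change from 8N to 16N-plus in the knockout (vertical) against the control (horizontal), 1 point a gene, with the 51 genes whose knockout step was lower and the 17 whose knockout step was higher in colour. The dashed line marks equal steps. Most of the 51 lie at control values above 1 with knockout values near 0, as Lpin2 and Mmp19 do, while Igkc, Ighm and Lyz1 lie above the line.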

How the data were processed

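RNA of sorted megakaryocytes was compared between 16N-plus and 8N gates, 3 libraries a group, pooled from 52k ± 32k cells per sample per the labels' protocols, and made with a stranded total RNA kit. The submitters' processing notes list featureCounts, Subread, STAR, Trimmomatic, Picard, DESeq2 and edgeR and the build mm10, and give neither versions nor roles. Per the file headers, the authors' tables hold for each gene the log2 fold change, mean log2 CPM, F score, p-value and false discovery rate that edgeR's quasi-likelihood test writes. The authors' platelet table gave the platelet signal, a mean normalised count. The denominator degrees of freedom that F and p imply together were 339, so the authors' test pooled the spread across genes. Depth and values per library are not given in the sources used here.

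Computed here were the SE (absolute log2 fold change divided by the root of F, for F above 1e-06), the difference between the steps, and the group levels in CPM, which carry no error of their own. The difference of steps took the SEs of both tables as independent and was not computed for 70 genes. Whether the SE and the difference of steps hold near the lowest level of the tables was not tested. Gene IDs matched a GENCODE M21 (GRCm38) symbol for 9300 of 9326 rows. Python 3.11.15, numpy 2.4.6, pandas 2.3.3 and scipy 1.17.1 were used. The text names the 12 largest rises and falls, up to 4 called members per list and direction, a set of familiar lineage genes, the 10 largest differences each way and up to 4 members per list called in the difference test. Further list members are named as examples after their values were seen. The members and all 35 lists were chosen with earlier results of these data known. No replicate was left out, since that needs values per library.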

Additional observations from a re-analysis of the deposited data

Results flagged for a closer look

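The ploidy step differed between knockout and control for 68 genes in the test of the difference itself (normal approximation, Benjamini-Hochberg adjusted). Values below are the knockout step minus the control step on the log2 scale, for those named by the rules given above. Members of the other-cell lists made up most of the positive values. The neutrophil list gave 2.51 for Lyz1, 1.82 for Mmp9, 1.64 for Lcn2, 1.61 for Chil3 and 1.37 for Csf3r. Lyz1 is also known from Paneth cells of the intestine. Immunoglobulin genes had 2.12 for Ighm, 1.77 for Igkc and 1.29 for Ighg2b. Further values were 1.68 for Itgam, 1.19 for the eosinophil granule gene Prg2 and 1.06 for Runx2. Outside the marker lists, Itln1, an intestinal lectin, was at 1.68 and Nfkbiz, a regulator of NF-kappaB targets, at 1.49. Reconstructed Itln1 levels were 40.1 and 55.3 CPM in the knockout gates, not far above the lowest level the table can show.

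Negative values of genes in the platelet and lineage lists were -1.65 for Tubb2a, -1.39 for Slc6a4, -1.22 for Stx11, -1.24 for Rap1a, -1.45 for Gata2 and -1.25 for Lyl1. The respiratory chain gave -1.50 for mt-Nd1 and -1.53 for Atp5e, an ATP synthase subunit that also lay below 0 in the knockout. Interferon-induced genes Ifit1 and Ifit2 were at -1.05 and -1.54. Ifit1 had reconstructed levels of 30.7 and 37.0 CPM in the knockout gates, near the lowest level the table can show. The largest negative values were -2.26 for Lpin2, -2.08 for Prokr1, -1.91 for Mmp19, -1.90 for Mest, -1.86 for Aplf, -1.86 for Otud7b, -1.77 for Rnf144b, -1.71 for Nrip1, -1.67 for Birc2 and -1.66 for Draxin. The T and NK cell markers Gzma and Tcf7 were at -1.31 and -1.29. No test was made of what these genes share.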

How the results depend on the processing

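The count of called genes depended on the threshold. At an adjusted p under 0.01 the knockout step had 176 calls, 115 higher and 61 lower, and with a log2 size of at least 1 it had 71, 46 higher and 25 lower, against 309, 196 and 113. The other alternatives gave 285 to 385 calls, the highest after centring on the median gene. The difference of steps had between 46 and 77 calls in all alternatives, with 11 higher at an adjusted p under 0.01 against 17. Of 562 alternative values for named genes 488 kept their call, and of 205 for named differences 183 did. None changed sign. Under centring the list counts moved within the lists of small counts, for instance from 3 to 5 rises in platelet signalling and from 2 to 4 in neutrophil markers. At an adjusted p under 0.01 8 of the 19 ribosomal protein falls were left. The alternative that takes the larger of both SEs was chosen after seeing the data and gave 61 calls. No paired analysis was possible because the tables hold no values per library, and leaving out replicates was not run for the same reason. Depth per library is unknown, and changes near the lowest level of the tables cannot be resolved.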

Other observations

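Several called genes outside the lists are known from the same processes. They were chosen after their values were seen and because they were called, so they show nothing about those processes as a whole. Among genes linked to ribosome assembly these fell per the authors' deposited table: the nucleolar protein genes Nop56 by 0.93 (SE 0.19) and Rsl1d1 by 1.00 (SE 0.22), the assembly ATPase Mdn1 by 0.83 (SE 0.20), the RNA polymerase I subunit Polr1a by 0.83 (SE 0.21) and the RNA methyltransferase Nsun2 by 0.84 (SE 0.20). The acetyltransferase gene Nat10, also of the nucleolus, was not called at -0.80 (SE 0.25; edgeR adjusted p = 0.050) per the authors' deposited table. Of 11 enzymes of nucleotide synthesis looked up, 3 fell, against 1.21% of all genes. Per the authors' deposited table, Pfas was at -0.99 (SE 0.20) and Atic at -0.85 (SE 0.21) in purine synthesis. Cad was at -0.78 (SE 0.24) in pyrimidine synthesis in that deposited table. The other 8 were not called: Impdh2 was at -0.55, Paics at -0.49, Umps at -0.45, Gart at -0.31, Ppat at -0.31, Ctps at -0.27, Adsl at -0.06 and Dhodh at 0.01 per the authors' deposited table.

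Long nuclear RNAs went different ways. Malat1, a nuclear speckle RNA, rose by 0.99 (SE 0.14; edgeR adjusted p = 5.3e-09) per the authors' deposited table, with reconstructed levels of 4396 and 8707 CPM in the knockout gates. Neat1, the scaffold RNA of paraspeckles, was not called at 0.33 (SE 0.24) in the knockout and was at 1.79 in the control, per the authors' deposited table, and the difference of -1.47 (SE 0.35; adjusted p = 0.0070) was called. The imprinted antisense RNA Kcnq1ot1 fell by 1.27 (SE 0.26) and Rn7sk, the RNA that holds the elongation kinase inactive, rose by 0.87 (SE 0.19) per the authors' deposited table.

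Secreted products known from Paneth cells of the intestine were listed in these marrow libraries. Lyz1, Itln1 and the defensin Defa30 rose in the knockout step by 0.71, 0.46 and 0.34 per the authors' deposited table, with reconstructed levels of at most 95.1 CPM in the knockout gates. Itln1 was at 40.1 and 55.3 CPM there and Defa30 at 31.1 and 39.3 CPM. These are not far above the lowest level the table can show, near which SEs were small and changes cannot be resolved. The control steps of Lyz1 and Itln1 were -1.80 and -1.21 per the authors' deposited table, and both were called there. The defensin Defa24 was not called at 0.15 (SE 0.06; edgeR adjusted p = 0.24), nor was the intestinal stem cell gene Olfm4, at -0.14 in the knockout and 0.59 in the control, per the authors' deposited table. Muc2 and Pigr, also intestinal, lay near 20 CPM in the knockout gates, the lowest level the tables show.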
